A study of Mus musculus with 6 samples.

Results

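Early T cell progenitors, the most immature cells of the thymus, were examined for 10 genes of RNA control and fetal identity. Of these, 7 belong to the fetal Lin28b and let-7 axis (Lin28b, Igf2bp1, Igf2bp2, Igf2bp3, Hmga1, Hmga2 and Arid3a) and 3 are the Zfp36 family of mRNA decay proteins (Zfp36, Zfp36l1 and Zfp36l2). They were chosen by symbol, with earlier results of these data known. All 10 were found among the 22609 genes of the deposited table and had been tested. RNA sequencing had been carried out on sorted cells of fetal thymus of C57BL/6 mice, with 3 dKO and 3 control libraries. The dKO cells were of the genotype E2Afl/flHEBfl/flIL7RCre, in which floxed alleles of E2A (gene Tcf3) and HEB (gene Tcf12), transcription factors of lymphoid development, are deleted by a Cre that the labels name IL7RCre. The control cells were wild type, with no floxed allele or Cre given for them. Both were sorted as cells negative for CD4, CD8, lineage markers and CD25 and positive for CD44 and c-Kit. Only the dKO gate also asked for YFP, so genotype, Cre and the YFP gate cannot be told apart. The sources used here give neither the age of the fetuses nor whether each library was a separate animal or a pool. The p-values therefore reflect variation among the 3 libraries of a group, which may be technical only.

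Lin28b is an RNA-binding protein of fetal stem and progenitor cells that blocks the maturation of let-7 microRNAs. Mature let-7 lowers the mRNAs that carry its site, among them those of the Igf2bp proteins (binders that stabilise mRNA), the Hmga proteins (architectural chromatin proteins), Arid3a (a DNA-binding factor of fetal-type B cell development) and Lin28b itself. The axis is known for setting a fetal as opposed to an adult pattern of blood cell production. The Zfp36 proteins act at the other end of mRNA life: they bind AU-rich elements in the 3' untranslated region (UTR) and recruit the CCR4-NOT deadenylase, and Zfp36l1 and Zfp36l2 are known in mice to restrain thymocyte growth and Notch1 mRNA.

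The sequences that tie these genes together are the let-7 seed and the elements in their 3' UTRs. All 9 mature let-7 family sequences matched in RefSeq (GRCm38.p6), namely let-7a, b, c, d, e, f, g and i and miR-98, share the seed GAGGUAG at bases 2 to 8, shown here in capitals for 3 of them.
let-7a-5p: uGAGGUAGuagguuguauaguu
let-7g-5p: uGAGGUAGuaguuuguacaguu
miR-98-5p: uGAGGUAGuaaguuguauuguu

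The match to that seed, CTACCTC, was searched on the sense strand of the longest annotated 3' UTR of each gene (GENCODE M21 transcripts, GRCm38). It was found in all 7 axis genes and in none of the 3 Zfp36 genes, whereas 8.98% of 20903 mouse 3' UTRs held it. Of UTRs within 20% of the lengths of Zfp36, Zfp36l1 and Zfp36l2, 5.89%, 12.2% and 12.1% held it. Most UTRs of those lengths thus lack it. Lin28b, Igf2bp1 and Hmga2 held 4 matches each, Arid3a 2, and Igf2bp2, Igf2bp3 and Hmga1 1 each. Among all 3' UTRs within 20% of the same length, 0.239% had 4 or more for Lin28b, 0.356% for Igf2bp1 and 0.135% for Hmga2. Single matches were less rare, at 12% of UTRs of the length of Igf2bp2, 13.3% for Igf2bp3 and 7.93% for Hmga1, while 2.29% of those of the length of Arid3a held 2 or more. These genes are known partly through their let-7 sites, so the matches describe the choice of genes and are not a result of these libraries. The 4 sites of Lin28b and of Hmga2 and 1 site each of Igf2bp1, Igf2bp2 and Igf2bp3 are shown as DNA, 22 bases each, with the seed match in capitals.
Lin28b site 1: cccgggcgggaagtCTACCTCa
Lin28b site 2: atacttgttagtaaCTACCTCt
Lin28b site 3: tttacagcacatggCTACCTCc
Lin28b site 4: aatgatggcaccgaCTACCTCt
Hmga2 site 1: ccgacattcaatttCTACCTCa
Hmga2 site 2: cccactcctcaataCTACCTCt
Hmga2 site 3: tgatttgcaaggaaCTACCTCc
Hmga2 site 4: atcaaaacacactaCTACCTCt
Igf2bp1 site 1: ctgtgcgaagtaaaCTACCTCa
Igf2bp2 site 1: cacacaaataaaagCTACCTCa
Igf2bp3 site 1: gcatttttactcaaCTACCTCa

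The AU-rich nonamer TTATTTATT, the kind of element that Zfp36 proteins bind, was searched in the same way. Each of the 3 Zfp36 genes held 1 copy in its own 3' UTR and none of the 7 axis genes held it, against 7.62% of all 3' UTRs. Of UTRs within 20% of the same length, 4.1% held it for Zfp36, 9.96% for Zfp36l1 and 9.95% for Zfp36l2. For the axis genes that share ran from 8.51% (Hmga1) to 24.2% (Igf2bp1), so most UTRs of their lengths lack it too. A match is a description of the letters and not evidence of binding. The nonamer is in capitals.
Zfp36: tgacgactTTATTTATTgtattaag
Zfp36l1: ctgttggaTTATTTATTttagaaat
Zfp36l2: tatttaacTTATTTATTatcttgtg

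E2A and HEB bind E boxes, so the motif CAGCTG, a palindrome, and the motif CACCTG on both strands (CAGGTG on the other) were also counted in RefSeq promoters, from 250 bases before to 50 bases after the start, for the 7 of the 10 genes that the table holds. Hmga1 had 1, and Hmga2, Igf2bp2, Igf2bp3, Lin28b, Zfp36 and Zfp36l1 had none in this window. Of 32851 promoters of that length, 32.9% held at least 1.

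For each gene the authors deposited the mean normalised count of dKO, that of control and their own test. A gene is said to have risen or fallen in dKO where the authors' adjusted p is under 0.05. Both deleted genes were lower in dKO, Tcf3 with means of 364 in dKO and 8931 in control and Tcf12 with 562 in dKO and 3845 in control in the authors' deposited table. The change was broad: 4707 of 16241 tested genes passed, or 29.0%, with 15.1% higher and 13.8% lower in dKO. Size factors were read from the spacing of low means, which are made of whole reads. With the summed group means they put the gene counts at about 24.3 to 27 M reads per dKO library. For control libraries they gave about 18.2 to 22.6 M. This takes the libraries of a group to have equal normalised totals. Of 8 progenitor markers 3 rose and 3 fell. Kit was high in both groups, with means of 19067 in dKO and 14094 in control in the authors' deposited table. Flt3 was lower in dKO, at 327 in dKO and 1080 in control in the authors' deposited table, and Il2ra, which encodes the CD25 that the gate excluded, was at 8536 in dKO and 8417 in control there. Markers of other cells moved too. Of 8 myeloid markers 4 fell, and their summed means were 2313 in dKO and 8854 in control, with Elane at 0 in control, or 855 in dKO and 1544 in control without Mpo, the most abundant of them. Of 6 markers of later thymocytes 3 fell and none was at 0. Their sums were 8629 in dKO and 11239 in control, mostly Il2ra, and 93 in dKO and 2822 in control without it. Rag1 was at 29.2 in dKO and 1784 in control, and Ptcra at 1.52 in dKO and 924 in control, in the authors' deposited table. Of 4 mast cell and basophil markers 2 rose (Mcpt8 and Ms4a2) and 1 fell (Cpa3), with sums of 2633 in dKO and 5975 in control, or 486 in dKO and 152 in control without Cpa3. Summed means were 421 in dKO and 1381 in control for 4 dendritic cell markers (2 fell, Siglech at 0 in both), and 35 in dKO and 107 in control for 5 B cell markers (1 fell, Pax5 and Ms4a1 at 0 in both). They were 2511 in dKO and 2920 in control for 9 stromal markers (Pecam1 fell, 2 at 0 in both), or 447 in dKO and 281 in control without Pecam1, and 136 in dKO and 202 in control for 8 erythroid markers (none passed, the 4 globin genes at 0 in both). The treatment of reads shared between genes is not given in the sources used here, so a 0 need not mean absent RNA. The part of these cell markers in the results below was not tested. In a bulk sample, fewer cells of a type and less RNA per cell cannot be told apart.

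Of the 10 genes, 6 fell, 2 rose and 2 did not pass. The genes were chosen with earlier results of these data known, so their counts and medians are descriptions only. Of the 10302 tested genes whose 2 group means averaged at least 100, as those of 9 of the 10 genes did, 40.4% passed, 21.2% higher and 19.1% lower in dKO. The median log2 change of the 10 genes was -0.60, against 0.01 for those abundant genes. Of the 7 axis genes 5 fell and none rose, with a median of -0.73, while in the Zfp36 family 2 rose and 1 fell, with a median of 1.88.

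**Figure D1:**
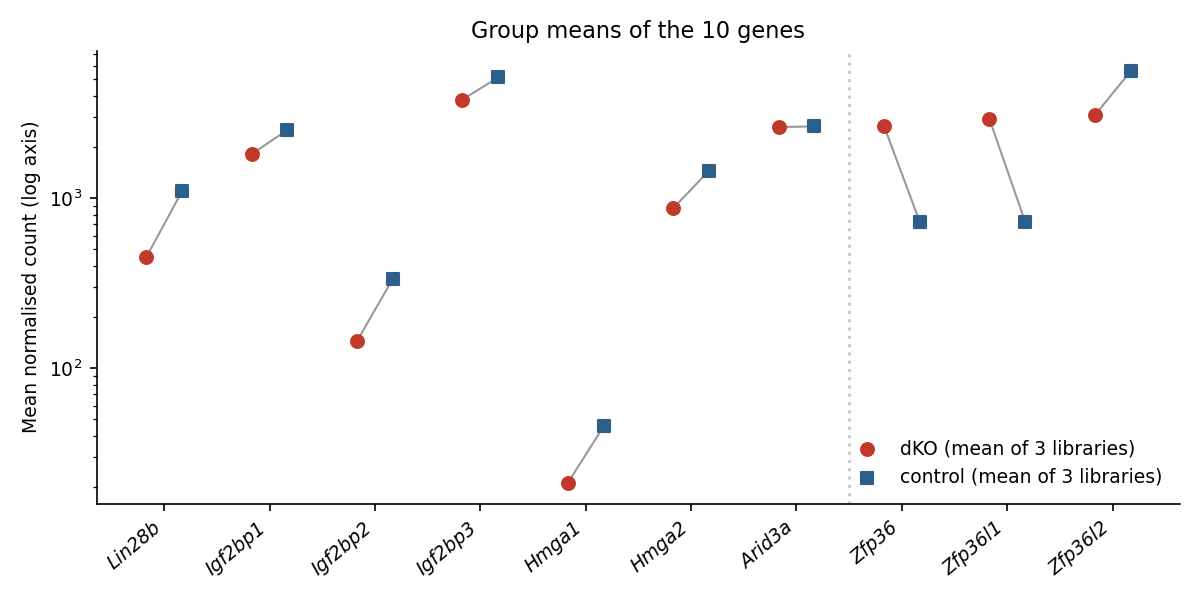
Mean normalised count of each of the 10 genes in dKO (circles, left of each pair) and control (squares, right), on a log axis, each the authors' mean of 3 libraries; the dotted line parts the Lin28b axis from the Zfp36 family. Zfp36 and Zfp36l1 stand near 2661 and 2931 in dKO, above 724 and 725 in control, while most other pairs slope the other way.

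Lin28b, the head of the axis, fell. Its mean was 448 in dKO and 1097 in control in the authors' deposited table, which is 2.45-fold lower in dKO (adjusted p = 1.42e-09). The approximate 95% interval of the fall, computed from the log2 change and the authors' p, was 1.87-fold to 3.21-fold. Of the abundant genes, 4.32% had a lower log2 change. The mean of dKO could be resolved into 2 possible sets of whole reads: normalised counts of 75.3, 663 and 606, or of 422, 316 and 606, in libraries in order of falling size factor. In either set no dKO library reached the control mean of 1097, but in the first set 1 library lies far below the other 2. Lin28a, the paralog that acts in embryonic stem cells, was near 0, with normalised counts of 15.6, 5.58 and 0 in the dKO libraries and 11.7, 14.7 and 10.9 in the control libraries. Lin28a missed the threshold in the authors' deposited table (authors' adjusted p = 0.816).

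The 3 Igf2bp genes all fell, by 1.35-fold to 2.32-fold. Igf2bp3, an oncofetal mRNA binder, averaged 3795 in dKO and 5119 in control in the authors' deposited table, which is 1.35-fold lower (adjusted p = 6.13e-04; approximate interval 1.16-fold to 1.57-fold). Igf2bp1, which protects Myc mRNA among others, averaged 1814 in dKO and 2514 in control in the authors' deposited table, which is 1.39-fold lower (adjusted p = 0.0014; interval 1.16-fold to 1.65-fold). These intervals overlap, so Igf2bp1 and Igf2bp3 cannot be ranked by their change. Igf2bp2, which is also expressed in adult tissues, averaged 144 in dKO and 335 in control in the authors' deposited table, which is 2.32-fold lower (adjusted p = 5.50e-05; interval 1.61-fold to 3.35-fold). Its dKO libraries had normalised counts of 145, 119 and 169, or 144 ± 25 (SD, n = 3), recovered as the single set of whole reads that gives the mean. All 3 lay below the control mean of 335. The control libraries of Igf2bp2 could not be resolved, since 4 sets of whole reads, with single libraries from 18.2 to 863, gave that mean. Whether the groups overlap is therefore not known. Per kilobase of transcript, Igf2bp3 was the highest of the family in both groups, with levels of 873 in dKO and 1178 in control. Igf2bp1 followed with 217 per kilobase in dKO and 300 in control, and Igf2bp2 was lowest with 37 in dKO and 86 in control. Igf2bp3 thus held 77.5% of the family's level per kilobase in dKO and 75.3% in control, and the family sum was 1127 per kilobase in dKO and 1564 in control, a ratio of 0.72. The spread of these sums over libraries is not known.

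Of the 2 Hmga genes, which encode AT-hook proteins that bend DNA and mark fetal and transformed cells, Hmga2 fell. Hmga2, the member most tied to self-renewal of fetal stem cells, averaged 870 in dKO and 1447 in control in the authors' deposited table, which is 1.66-fold lower (adjusted p = 0.00381; interval 1.24-fold to 2.23-fold). Its dKO mean allowed 2 sets of whole reads, 604, 1008 and 999 or 951, 661 and 999. In both sets every dKO library was below the control mean of 1447. Its pseudogene Hmga2-ps1 did not pass, with means of 40.5 in dKO and 64.9 in control in the authors' deposited table.

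Hmga1 had few reads and did not pass. Its normalised counts were 27.7, 27.9 and 7.71 in the dKO libraries, or 21.1 ± 11.6 (SD, n = 3), and 52.7, 33.6 and 49.8 in the control libraries, or 45.4 ± 10.3 (SD, n = 3). Every dKO library was below every control library. The exact permutation test over the 6 libraries, 2-sided, gave p = 0.10, the smallest it can give with 3 against 3, and the authors' adjusted p was 0.288 in the authors' deposited table. The approximate interval ran from 5.76-fold lower to 1.24-fold higher in dKO. Its values rest on 8 to 54 reads per library.

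Arid3a did not pass. Its mean was 2613 in dKO and 2637 in control in the authors' deposited table, with a ratio of 0.991 (authors' adjusted p = 0.999). The approximate 95% interval of the ratio was 0.836 to 1.17. The intervals of Lin28b (0.312 to 0.535), Igf2bp2 (0.298 to 0.621) and Hmga2 (0.448 to 0.807) lie below it, and that of Hmga1 (0.174 to 1.24) spans it. The intervals of Igf2bp1 and Igf2bp3, 0.607 to 0.859 and 0.638 to 0.861, overlap that of Arid3a slightly.

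**Figure D2:**
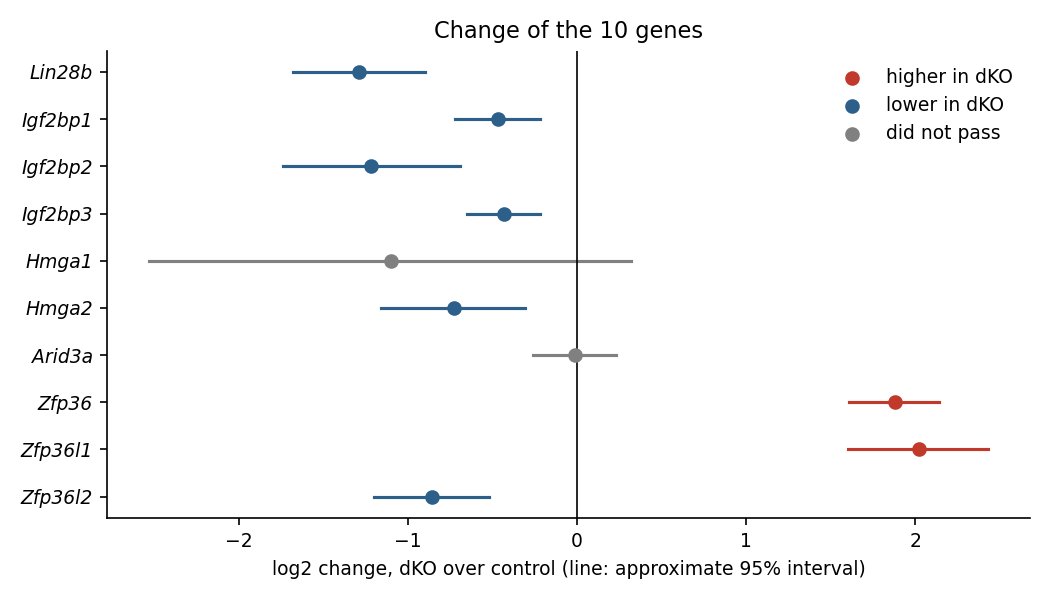
Log2 change of each gene, dKO over control, with an approximate 95% interval computed from the change and the authors' p (lines); red, higher in dKO; blue, lower; grey, did not pass. The points of Lin28b, the Igf2bp genes, Hmga2 and Zfp36l2 lie between -1.29 and -0.43, Arid3a lies at -0.01 and Zfp36 and Zfp36l1 lie at 1.88 and 2.02.

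**Figure D3:**
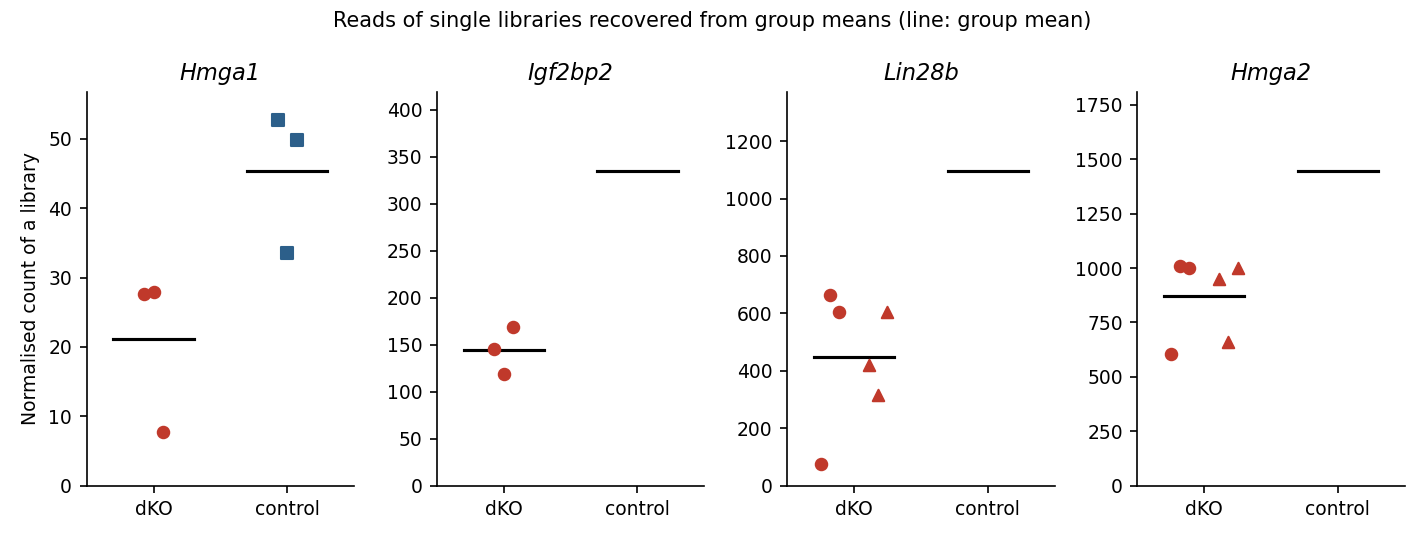
Normalised counts of single libraries recovered from the group means, dKO left and control right, with the group mean as a line; circles and triangles mark the 2 possible sets where there are 2, and control libraries are shown only where they could be resolved. All dKO points lie below the control mean in each panel.

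Zfp36 and Zfp36l1 rose and Zfp36l2 fell. Zfp36 (tristetraprolin), an early response gene that destabilises Tnf mRNA, averaged 2661 in dKO and 724 in control in the authors' deposited table, which is 3.68-fold higher (adjusted p = 3.42e-42; approximate interval 3.06-fold to 4.41-fold). It ranked at place 131 of all tested genes by adjusted p. Zfp36l1 averaged 2931 in dKO and 725 in control in the authors' deposited table, which is 4.04-fold higher (adjusted p = 3.74e-20; interval 3.04-fold to 5.38-fold). Its control mean allowed 7 sets of whole reads, with single libraries from 107 to 1701, so the spread of the control libraries is not known. The intervals of Zfp36 and Zfp36l1 overlap. Of the abundant genes, 96.6% had a lower log2 change than Zfp36 and 97% a lower one than Zfp36l1. Zfp36l2, needed in mice for blood stem cells, went the other way: it averaged 3062 in dKO and 5558 in control in the authors' deposited table, which is 1.82-fold lower (adjusted p = 5.43e-06; interval 1.44-fold to 2.29-fold). Its interval does not meet those of its paralogs. Zfp36l3, a placental family member of rodents, was at 0 in dKO and control alike in the authors' deposited table.

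Per kilobase of transcript the make-up of the family differed between the groups. In dKO the 3 levels were close: Zfp36l1 was at 980 per kilobase (35% of the family), Zfp36 at 954 (34%) and Zfp36l2 at 867 (31%). In control Zfp36l2 stood at 1575 per kilobase (75.8%), with Zfp36 at 259 (12.5%) and Zfp36l1 at 242 (11.7%). The spread between dKO libraries is not known for these genes, so the order within dKO cannot be read from these means. The family sum was 2802 per kilobase in dKO and 2076 in control, a ratio of 1.35. A level per kilobase assumes the transcript with the longest 3' UTR for every gene.

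**Figure D4:**
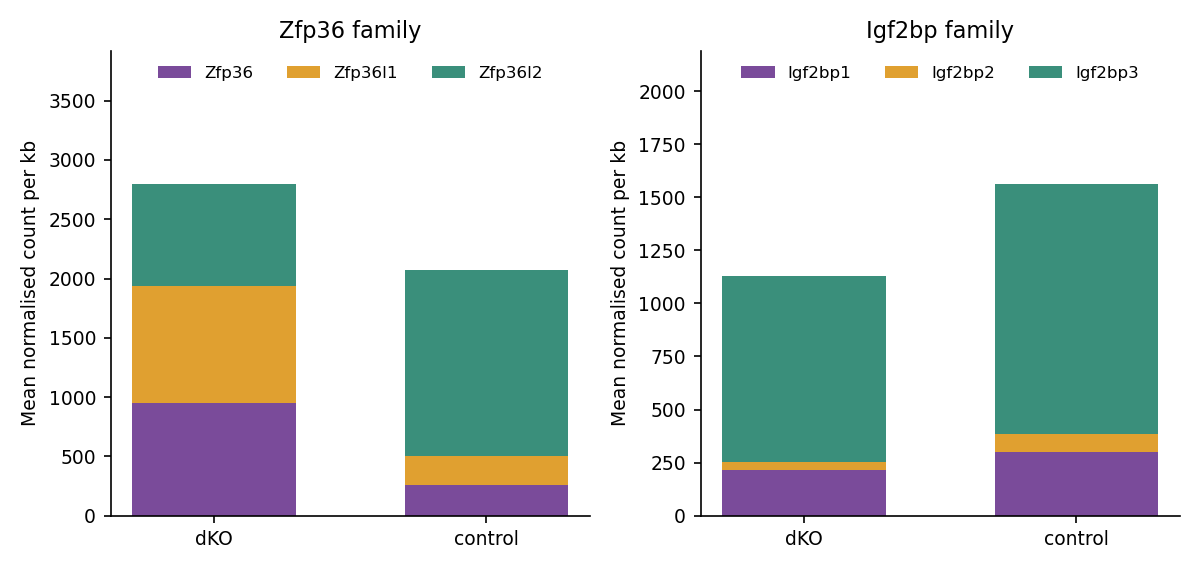
Level of the Zfp36 family (left) and Igf2bp family (right) as mean normalised count per kilobase of transcript, stacked by gene, dKO left of control in each panel, with no error since only group means are known. Zfp36l2 fills 31% of the dKO bar and 75.8% of the control bar, while Igf2bp3 holds 77.5% of the dKO bar and 75.3% of the control bar.

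Of 35 tested genes of let-7 biogenesis and its control, 7 fell and 3 rose in dKO, and the median log2 change was -0.08. That is 28.6% called, close to the 29.0% of all tested genes, so the count did not stand out and the genes below are given as single values. By direction, 20% fell, against 13.8% of all tested and 19.1% of abundant genes. The share that rose was 8.57%, against 15.1% of all tested and 21.2% of abundant genes. The nuclear processor Drosha fell 1.43-fold (1982 in dKO and 2827 in control in the authors' deposited table, authors' adjusted p = 1.29e-04). The cytoplasmic processor Dicer1 fell 1.38-fold (1679 in dKO and 2317 in control in the authors' deposited table, authors' adjusted p = 0.00726). Prkra, a Dicer partner, was at 382 in dKO and 685 in control and Msi2, an RNA-binding protein of blood stem cells, at 1009 in dKO and 2331 in control in the authors' deposited table, and both fell. Those that rose were Eif2c2, the slicer Argonaute, at 1060 in dKO and 761 in control, the RNA helicase gene Ddx17, at 4532 in dKO and 3725 in control, and the RNA editing enzyme gene Adar, at 5522 in dKO and 2448 in control in the authors' deposited table. Of the let-7 hairpin genes the table lists Mirlet7d, Mirlet7i and Mirlet7g with a few reads each and the others matched at 0, values that do not measure mature let-7.

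Targets of let-7 other than the 7 axis genes moved both ways: of 41 tested, 13 fell and 9 rose, and the median log2 change was -0.01. That is 53.7% called, against 29.0% of all tested and 40.4% of abundant genes. This list was chosen with earlier results of these data known, so its share is a description only. The growth genes Mycn (2259 in dKO and 7132 in control), Myc (3451 in dKO and 9311 in control), Igf1r (353 in dKO and 1143 in control) and Cdk6 (976 in dKO and 2312 in control) fell in the authors' deposited table. The ribonucleotide reductase gene Rrm2 (13760 in dKO and 7693 in control) and Zbtb16 (3860 in dKO and 950 in control), which encodes PLZF of innate lymphoid precursors, rose in the authors' deposited table. A seed match was found in 33 of the 44 list genes that have a 3' UTR. Of the genes just named, Igf1r held 2 matches and Rrm2 and Zbtb16 1 each. None was found for Mycn, Myc and Cdk6. Of the 30 tested genes with a match 9 fell and 5 rose, and of the 10 without one 4 fell and 4 rose. Their medians were -0.08 with a match and 0.10 without. Over the whole table, abundant genes with 2 or more seed matches numbered 117, of which 26.5% fell and 14.5% rose. Leaving out the 4 that belong to the axis, 113 remained, of which 24.8% fell and 15% rose. Of the 8158 abundant genes with no match, 19.4% fell and 21.7% rose, and of the 856 with 1 match, 18.2% fell and 22.3% rose. The median log2 changes were -0.08 with 2 or more matches and 0.01 with 1 or none. The 3' UTRs of these classes differ in median length, 3814 bases with 2 or more matches, 2219 with 1 and 1078 with none. Among abundant genes with a 3' UTR above the median length, 20.7% of the 767 with a match rose and 18.5% fell, while of the 3797 without a match 23.1% rose and 18.7% fell.

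Of 18 tested genes listed for fetal against adult blood cell production, 4 rose and 4 fell, and the median log2 change was -0.22. That is 44.4% called, against 40.4% of abundant genes. The list mixes fetal genes with others, such as the fetal globin repressor gene Bcl11a, so its median does not measure fetal identity. The count that rose was 2 at adjusted p under 0.01, and 2 with 5 lower where both groups were scaled to the same total. Those that fell were Gpr56, an adhesion receptor of blood stem cells, with means of 4297 in dKO and 37510 in control, Bcl11a, the repressor of fetal globin, 936 in dKO and 3525 in control, Tal1, a stem cell factor, 36.6 in dKO and 133 in control, and Esam, 181 in dKO and 329 in control in the authors' deposited table. Those that rose were Dlk1, 284 in dKO and 56.6 in control (adjusted p = 5.35e-11), Plagl1, 47.6 in dKO and 3.1 in control (3.20e-04), Cdkn1c, 291 in dKO and 127 in control (0.0415), and Igf2, 600 in dKO and 348 in control (0.0495), all in the authors' deposited table. These 4 genes are imprinted, but so are Mest, Peg3 and Grb10, which did not pass. Their means were 42.2 in dKO and 66.6 in control for Mest, 26.6 in dKO and 30.9 in control for Peg3, and 108 in dKO and 239 in control for Grb10 in the authors' deposited table. H19, the imprinted fetal RNA that is known to bind let-7, was abundant in both groups and did not pass, with means of 6506 in dKO and 6451 in control in the authors' deposited table.

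Zfp36 proteins are controlled by phosphorylation. Of 16 genes of the p38 kinase branch, phosphatase PP2A and 14-3-3 proteins, 8 rose and 3 fell, and the median log2 change was 0.24. That is 50% higher, against 15.1% of all tested and 21.2% of abundant genes, and the count that rose was 5 at adjusted p under 0.01. This list and those below were chosen with earlier results of these data known, so their shares are descriptions only. Mapkapk3 rose 2.08-fold (3814 in dKO and 1836 in control) while Mapkapk2, the kinase that phosphorylates tristetraprolin, fell 1.86-fold (964 in dKO and 1794 in control) in the authors' deposited table. Among deadenylation genes 5 of 19 rose and 6 fell, or 57.9% called against 40.4% of abundant genes, and the median log2 change was 0.06. Those that rose were Cnot6l, a catalytic deadenylase (3406 in dKO and 1652 in control in the authors' deposited table), and 4 Tob and Btg adaptors: Btg2 rose 2.38-fold (1891 in dKO and 794 in control), Tob1 2.71-fold (1551 in dKO and 572 in control), Btg1 1.75-fold (3389 in dKO and 1938 in control) and Tob2 1.27-fold (1948 in dKO and 1529 in control) in the authors' deposited table. Those that fell included Pabpc4 (1518 in dKO and 2954 in control) and Cnot8 (2684 in dKO and 4179 in control) in the authors' deposited table. Pan3 (1122 in dKO and 1679 in control) and Pabpc1 (24390 in dKO and 32118 in control) fell there too. Cnot1, the scaffold that Zfp36 proteins contact, did not pass, with means of 9835 in dKO and 9894 in control in the authors' deposited table. Of 29 decapping and exonuclease genes 4 fell (Exosc5, Exosc2, Exosc7 and Eif4enif1) and none rose. All 29 were abundant, and of all abundant genes 21.2% rose. The share that fell was 13.8%, against 13.8% of all tested and 19.1% of abundant genes. The count that fell was 2 at adjusted p under 0.01 and 7 with equal totals. Of 25 other 3' UTR binding proteins 6 fell, among them Tia1 (2882 in dKO and 4375 in control in the authors' deposited table), and none rose. The share that fell was 24%, against 13.8% of all tested and 19.1% of abundant genes, and 2 fell at adjusted p under 0.01.

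**Figure D5:**
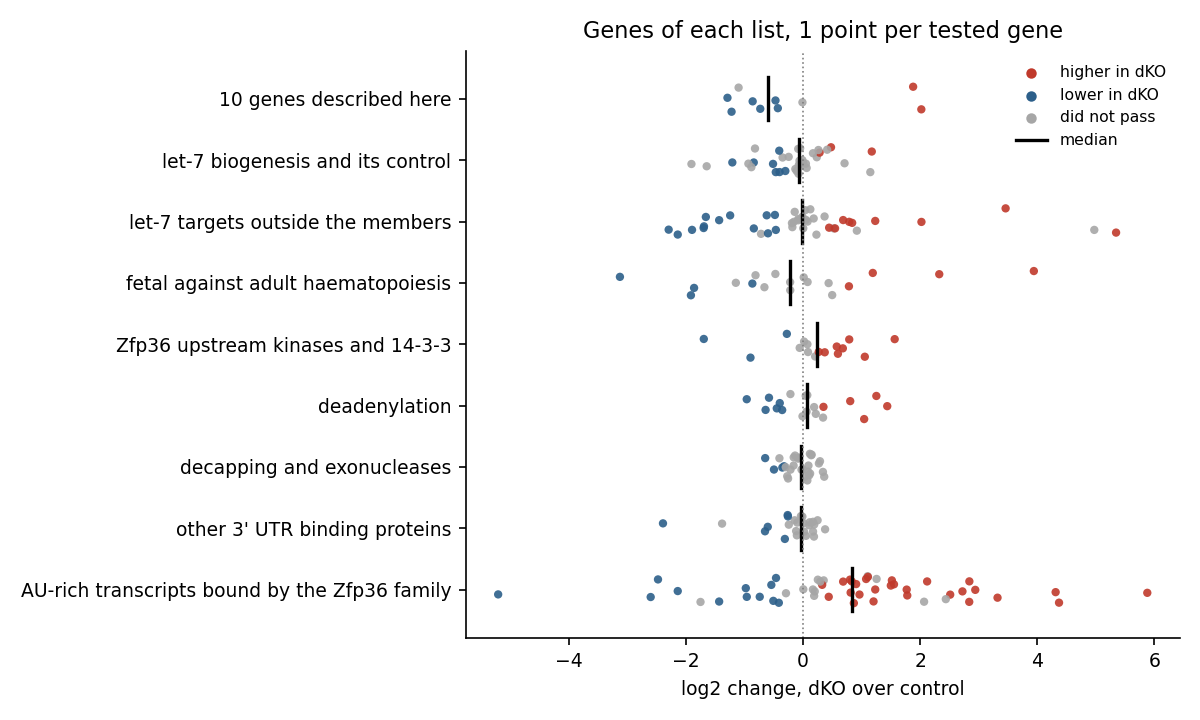
Log2 change, dKO over control, of every tested gene of each list, with the 10 genes described here in the top row; red, higher in dKO; blue, lower; grey, did not pass; the black bar is the median and genes at 0 in 1 group are set to a floor of 3 reads. Medians run from -0.60 for the 10 genes to 0.83 for AU-rich transcripts.

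Of 53 tested genes listed as AU-rich transcripts bound by Zfp36 proteins, many of them cytokine and activation genes, 28 rose and 12 fell. The median log2 change was 0.83. Of the 53 genes, 75.5% were called, against 29.0% of all tested and 40.4% of abundant genes. The list was chosen with earlier results of these data known, so its share is a description only. Icos (28812 in dKO and 4367 in control), Pdcd1 (5682 in dKO and 568 in control) and Rora (3234 in dKO and 567 in control) rose in the authors' deposited table. Notch1, an mRNA that Zfp36l1 and Zfp36l2 are known to bind, fell 5.56-fold in the authors' deposited table, with means of 1829 in dKO and 10176 in control. Rora and Notch1 held 1 nonamer each, while neither it nor the shorter TATTTAT was found in Icos or Pdcd1. The nonamer was found in 22 of the 57 list genes, and of 21 tested genes with it 10 rose and 5 fell, while of the 32 without it 18 rose and 7 fell. Their medians were 0.87 with the nonamer and 0.82 without. Over the whole table, 20.9% of 570 abundant genes with 1 nonamer rose and 14.2% fell, while with 2 or more 23.5% of 166 rose and 21.7% fell. Without it 21.7% of 8395 rose and 19.7% fell.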

How the data were processed

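Total RNA of sorted cells was amplified with a low-input SMARTer cDNA kit and sequenced on a HiSeq, per the labels' protocols. Amplification makes reads dependent, so floors cover counting error only. Build mm9, TopHat2 2.0.14, bcl2fastq 1.8.4 and DESeq version 2 are named in the submitters' processing notes. The gene counter, the annotation and the treatment of shared reads and strand: not given in the sources used here.

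Per the file headers, each group has 1 signal column, its mean of normalised counts. The ratio (fold) was deposited by the authors, as were each p-value and its adjusted form. Of 22609 genes, 16241 were tested and 6368 were at 0 in both groups. A count test would have been run on counts per library, but the table holds group means, so the authors' test was used, at adjusted p under 0.05. Approximate standard errors were the log2 change over the normal quantile of the authors' p.

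Group means are sums of whole reads over library weights, and reads were solved from their digits. All of 300 sampled genes of each group up to a mean of 100 had 1 solution. At means of 100 to 500, 207 of 300 did in dKO and 49 of 300 in control. The method was tested on simulated data up to a mean of 500, and not above it, where Hmga2 lies in dKO. For list medians, a group at 0 was set to the floor of 3 reads in that group (0.919 for dKO, 1.08 for control). Libraries were not matched to replicate numbers. Levels per kilobase used GENCODE M21 transcript lengths; motifs were counted there and in RefSeq tables. Python 3.11.15, numpy 2.4.6, scipy 1.17.1 and pandas 2.3.3 were used.

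The 10 genes and all lists were chosen with earlier results of these data known. Per list, up to 6 called genes of smallest adjusted p and 3 most abundant that did not pass could be named, and all where a count was 5 or fewer. Hmga2-ps1, Zfp36l3, Lin28a, Mest, Peg3, Grb10 and the let-7 hairpin genes were added after their values were seen. Alternatives were a stricter threshold, a filter at a mean of 10, rescalings, a pseudocount of 1 and leaving out libraries.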

Additional observations from a re-analysis of the deposited data

How the results depend on the processing

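Under every alternative the 10 genes kept the counts of 2 higher and 6 lower in dKO, and each gene kept its sign and its side of the threshold, with adjusted p under 0.05 or 0.01, adjustment over genes with an average mean of at least 10, the median of abundant genes set to 0 (a shift of 0.01 on the log2 scale), equal totals (0.08) and a pseudocount of 1. The pseudocount setting kept the authors' adjusted p, so it could not move a gene across the threshold. Rescaled calls used the approximate standard errors, a check added after the data were examined. With single libraries left out, the log2 change ran from -1.36 to -0.71 for Hmga1 and from -1.35 to -1.09 for Igf2bp2, where dKO libraries alone could be left out. For the other 8 genes no library could be left out, since their reads were not resolved.

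Some list counts moved by over 1.5 times. At adjusted p under 0.01, 2 genes of the fetal against adult list and 5 of the Zfp36 kinase and 14-3-3 list rose, and 2 decapping and exonuclease genes and 2 other 3' UTR binding proteins fell. With equal totals 2 genes of the fetal against adult list rose and 7 decapping and exonuclease genes fell. The cause was not tested. No paired analysis was possible because the table holds group means and its columns carry no replicate numbers. For the same reason a count test, a block and another tool's size factors were not run. Among the 10 genes the approximate interval is widest for Hmga1, whose means are under 50. The cause of its low level was not tested.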
